A study of Saccharomyces cerevisiae S288C with 12 samples.

Results

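The regions described here were bound by Cse4 in both lysine mutants of the protein and were missing from the joint list of the wild type strain. They were chosen from peak calls alone, as regions of the K215/216A list that overlapped a K215/216R region by 1 bp or more and overlapped no wild type region. Of 3511 K215/216A regions, 606 met this rule, which is 17.3%. The 17.3% is fixed by the rule and is not itself a result. The description "absent in wild type" did not hold in the separate libraries, since 510 of the 606 regions still overlapped a peak of a wild type library. They are therefore called regions of both mutants missing from the joint wild type list, and the 96 with no wild type peak at all are given separately.

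Cse4 is the budding yeast form of CENP-A, the histone H3 variant that marks centromeres and on which the kinetochore is built. Psh1 is a ubiquitin ligase that keeps Cse4 from accumulating on chromosome arms, so Cse4 made in excess without Psh1 also enters promoters and other sites away from centromeres. The study concerns sumoylation, the attachment of the small protein SUMO to lysines, in the C-terminal part of Cse4.

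All 3 strains were psh1delta, without Psh1, and made 6His-3HA tagged Cse4 from the galactose-driven pGAL promoter. They differed in that Cse4, which was wild type in one strain, K215/216A in another (lysines 215 and 216 changed to alanine) and K215/216R in the other (changed to arginine). Cells grew at 30 degrees C in 2% raffinose and received 2% galactose for 2 hours, so every map shows Cse4 after induced overexpression. Tagged Cse4 was taken down with anti-HA beads from sonicated chromatin, with 2 libraries per strain. The labels do not say whether the 2 libraries of a strain came from separate cultures.

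The joint list of a strain held only places where peaks of both its libraries overlapped, so a region was missing from it when 1 library had no peak there. The libraries differed in depth. The genome background recovered from the deposited values, in fragments per base, was 59.5 and 126 in wild type replicates 1 and 2, 146 and 148 for K215/216A, with 86.2 and 156 for K215/216R. Wild type replicate 1, the shallowest, had 3123 peaks and the other 5 libraries had 3604 to 4822. Peak lists hold no value where no peak was called, so a missing peak means that the signal did not pass the threshold, not that Cse4 was absent. The rule used the peak calls of all 6 libraries, so presence and fold are described here without a test. Between 2 libraries and 2, an exact permutation test cannot give a p below 0.33.

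Most of the 606 regions were present in wild type replicate 2 and not called in wild type replicate 1. A peak of replicate 2 alone overlapped 466 regions, a peak of replicate 1 alone overlapped 36, and 8 regions held peaks of both that did not overlap each other. No peak of either library overlapped 96 regions, or 15.8% of the 606. Over all K215/216A regions the share with no wild type peak was also 15.8% (553 of 3511), and over the 2463 that overlapped a K215/216R region it was 3.90%, the same 96 regions. In all, replicate 2 had a peak at 474 of the 606 regions (78.2%) and replicate 1 at 44 (7.26%). When wild type was taken as replicate 2 alone, 132 regions remained, and when it was taken as replicate 1 alone, 576 remained.

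With the lists as deposited, the same rule gave fewer regions when another strain was the missing one. There were 207 regions of wild type and K215/216A missing from K215/216R, and 273 of wild type and K215/216R missing from K215/216A. A peak of a library of the missing strain still overlapped 188 of the 207 (90.8%) and 195 of the 273 (71.4%). Both strains with 1 shallow library, wild type and K215/216R, had most of these peaks in their deeper library: 474 of 606 for wild type and 165 of 207 for K215/216R. In K215/216A, whose libraries were of like depth, the peaks were spread as 89 and 112 of 273. Depth cannot be told apart here from other differences between the libraries, and its part was not tested. The order of the sets was not stable. At equal list length it was 327 regions missing from wild type against 360 missing from K215/216A and 158 missing from K215/216R. With wild type taken as replicate 2 alone it was 132 against 485 and 553, and with any wild type peak counted it was 96 against 512 and 591.

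**Figure D1:**
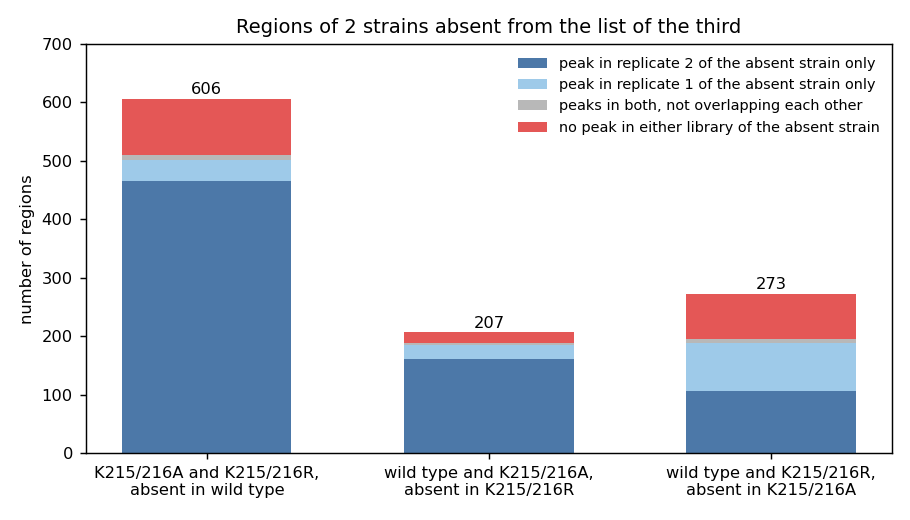
Number of regions (vertical axis) present in the joint lists of 2 strains and missing from that of the other, stacked by which libraries of the missing strain still had an overlapping peak. The wild type bar of 606 consists mostly of the 466 regions with a peak in replicate 2 only, and 96 regions have no wild type peak.

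When all libraries were scaled to the lowest genome background, the sizes of these sets came closer. The regions of both mutants missing from wild type fell to 378, while wild type and K215/216R without K215/216A gave 376 and wild type and K215/216A without K215/216R gave 194. Of the 606 regions, 338 (55.8%) were still in the set, and these made up 89.4% of the 378. The other 268 no longer lay in a region of both mutants. Single peaks were scaled in the same way. Scaled to the background of wild type replicate 1, with no sampling noise added, 378 of the 466 peaks in replicate 2 alone kept a p past that library's threshold and 88 did not. Of the 96 regions without a wild type peak, 89 had peaks in all 4 mutant libraries. Of those 89, 46 passed in all 4 at the depth of replicate 1 and 85 at the depth of replicate 2. The part of depth in the remaining calls was not tested.

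Regions touching a centromere interval stood among these sites. A centromere interval is here the space between the innermost genes of both chromosome arms, 630 to 2541 bp long. Touching takes 1 bp or more, so the summit of such a region could lie in a flanking gene. Of the 606 regions, 14 touched such an interval (2.31%), against 0.911% of all K215/216A regions (32 of 3511) and 0.808% of the 1857 regions of all 3 strains. The 14 lay on 12 of the 16 chromosomes, with 2 each on V and XII. No region touched an interval in the other sets, namely the 207 missing from K215/216R, the 273 missing from K215/216A and the 281 wild type regions missing from both mutants. After scaling to the lowest background, the set of both mutants held 15 such regions, among them all 14, and the other sets again held 0. In 9 of the 12 intervals the wild type list had another region of its own, and the intervals on VII, IX and XII had none. Wild type replicate 1 decided most of these absences, for 12 of the 14 regions had a peak in replicate 2. With wild type taken as replicate 2 alone, regions in or within 1 kb of an interval numbered 3 in place of 15. At the background of replicate 1 all 12 of these replicate 2 peaks would still have passed its p threshold.

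The region on chromosome IX (354710 to 355598, sacCer3) had the best rank of all 606. Its summit lay inside YIL001W, near the end of that gene, and the region reached into the centromere interval next to it. The authors' fold, the pileup over the local background at the best peak, was 3.36 and 3.92 in the K215/216A libraries, 2.93 and 2.24 in the K215/216R libraries and 1.79 in wild type replicate 2. The K215/216A libraries were above the K215/216R libraries, and those were above wild type replicate 2.

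The region on XI (440289 to 440692) lay between genes, with MET14, which encodes a kinase of sulfate assimilation, as the nearest gene start. Its fold was 3.06 and 2.20 in K215/216A, 2.13 and 2.13 in K215/216R and 1.83 in wild type replicate 2. The region on XIV (628084 to 628713) had its summit inside DOM34, whose product releases stalled ribosomes. Its fold was 2.61 and 2.60 in K215/216A, 1.89 and 2.10 in K215/216R and 1.76 in wild type replicate 2. In both, the groups did not overlap and K215/216A was highest.

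The region on XV (324768 to 326428), the longest of the 606 at 1661 bp, reached into the interval upstream of RRP6, which encodes a nuclear exosome nuclease. Its fold was 2.39 and 2.56 in K215/216A, 2.18 and 2.44 in K215/216R and 1.96 in wild type replicate 2. Here the mutants overlapped each other, and both were above wild type replicate 2. On chromosome III (114576 to 115517, nearest start YCR001W) the values of 2.02 and 1.74 in K215/216A, 1.92 and 1.82 in K215/216R and 1.88 in wild type replicate 2 overlapped throughout.

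Chromosome XII had a region at each side of its interval. The left one (150086 to 150765, nearest start DNM1, a dynamin of mitochondrial fission) had fold 2.39 and 2.40 in K215/216A, 1.69 and 1.76 in K215/216R and 1.70 in wild type replicate 2. The right one (151240 to 151886, in YLR001C) had 1.58 and 2.04, 1.77 and 1.47, and 1.48. In the left region K215/216A was apart from the other libraries, and in the right one the mutants overlapped.

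The remaining intervals were those on I, II, V, VII, XIII and XVI. On II (238409 to 239237, nearest start ECM15) fold was 1.97 and 2.09 in K215/216A, 1.60 and 1.59 in K215/216R and 1.62 in wild type replicate 2. On I (152203 to 152573) the summit lay in NUP60, which encodes a nuclear pore protein, and fold was 1.88 and 1.91, 1.57 and 1.60, and 1.73. K215/216R was below wild type replicate 2 in both.

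On V (151467 to 151908, nearest start IRC22) fold was 2.07 and 1.97 in K215/216A, 1.77 and 1.68 in K215/216R and 1.51 in wild type replicate 2. On XIII (268265 to 268974, nearest start YPT7, a Rab protein of the vacuole) it was 2.24 and 1.78, 1.46 and 1.70, and 1.53. On XVI (555621 to 555906, nearest start CIT3, a mitochondrial citrate synthase) it was 2.02 and 1.92, 1.55 and 1.82, and 1.63. K215/216A was the higher mutant in all 3.

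Only on V and VII did a region touching an interval lack any wild type peak. On VII (497121 to 497553) the summit lay in EFM5, a methyltransferase gene. Fold was 2.16 and 1.68 for K215/216A against 1.56 and 1.50 for K215/216R. The interval there ended at 497132, and no K215/216R peak or region reached it. The second region on V (151199 to 151335) had 1.39 and 1.48 in K215/216A and 1.68 in K215/216R replicate 2, with no peak of K215/216R replicate 1 overlapping it. A further region without a wild type peak lay inside NUP60, 536 bp from the interval on I (152792 to 153158), with fold 1.48 and 1.44 against 1.29 and 1.31 in the arginine mutant. The K215/216A list had a region in all 16 intervals, the K215/216R list in 15 (all but that on VII) and the wild type list in 12.

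**Figure D2:**
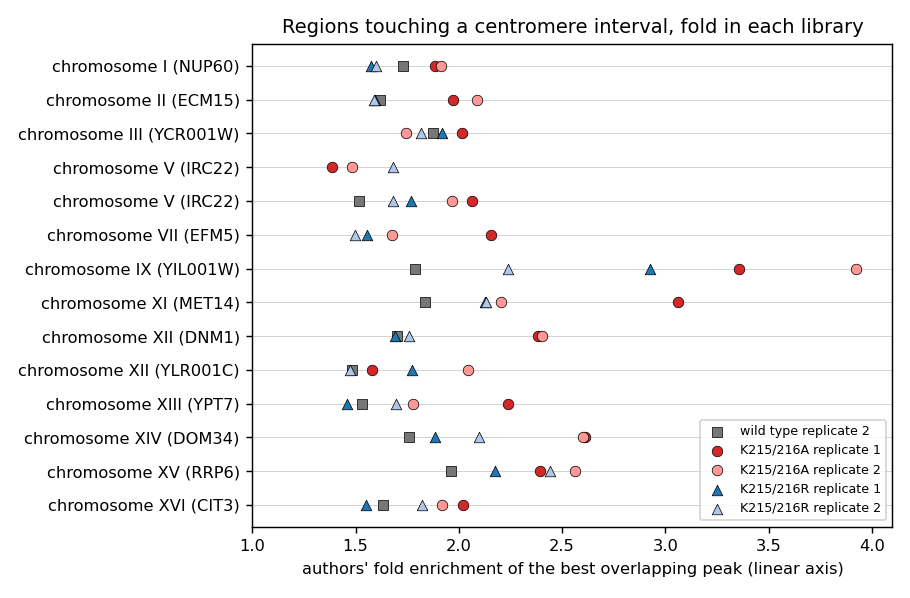
Authors' fold of the best overlapping peak (horizontal axis, linear) in each library for the 14 regions that touch a centromere interval, by chromosome, with the region's gene in brackets. Circles are K215/216A, triangles K215/216R and squares wild type replicate 2, and wild type replicate 1 had no peak in any of them. The circles lie to the right of the triangles for most regions, farthest on chromosome IX at 3.36 and 3.92.

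Near centromere intervals the alanine mutant had the higher fold. Of the 15 regions in or within 1 kb of an interval, 14 had peaks in all 4 mutant libraries, and in 11 of these both K215/216A libraries were above both K215/216R libraries, while in 0 both were below. Over all K215/216A regions with peaks in all 4 libraries the shares were 13.6% above and 32.3% below (2449 regions). Of the 47 K215/216A regions within 1 kb of an interval, 35 had peaks in all 4 mutant libraries, with 22 above and 2 below. These 35 include the 14 of the set and the 22 include its 11, so they are not a separate group. The rest of the 22 lay outside the set.

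Over the whole set the mutants had like fold. The median fold of the 606 regions was 1.47 in each K215/216A library, and 1.52 and 1.47 in the K215/216R libraries. The strain means of these medians were 1.47 ± 0.003 and 1.50 ± 0.03 (SD, n = 2), a difference of −0.03 that is less than the spread between the K215/216R libraries. Of 593 regions with peaks in all 4 libraries, 121 (20.4%) had K215/216A above and 128 (21.6%) had it below, beside 11.5% above and 35.8% below in the regions of all 3 strains.

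Where wild type replicate 2 had a peak, its fold was close to that of the mutants. Regions without a peak in replicate 2 have no fold there and were left out, which can raise the wild type median. In 469 regions with peaks in replicate 2 and all 4 mutant libraries, the median fold was 1.49 in wild type replicate 2, 1.49 and 1.47 for K215/216A, with 1.54 and 1.49 for K215/216R. Wild type replicate 2 was below all 4 mutant libraries in 118 of them (25.2%) and above all 4 in 77 (16.4%). Over all K215/216A regions with peaks in these 5 libraries the shares were 18.3% and 19.6%. In the 12 regions with such peaks that touched a centromere interval, wild type replicate 2 was below all 4 in 5 and above all 4 in 0. Its median there was 1.71 against 2.15 and 2.07 for K215/216A, with 1.77 and 1.79 for K215/216R.

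Within each mutant library the regions ranked lower than the regions of all 3 strains. The latter overlapped the joint wild type list, which needs peaks of both wild type libraries, and the set was chosen for missing it. The rule thus favours a lower rank for the set, and the difference is not itself a result. Counting from 0 for the highest fold, the median percentile of the set was 42.3 and 46.3 for K215/216A against 57.3 and 47.9 for K215/216R. All K215/216A regions had medians of 43.4, 42.1, 41.6 and 36.3 in the same order, and those of all 3 strains had 32.6, 28.8, 35.1 and 25.2. In K215/216A replicate 1 the set was thus not below all K215/216A regions, and in the other 3 libraries it was. The lists differ in length, so percentiles are not compared between libraries. The 96 regions with no wild type peak had medians of 48.7, 48.9, 67.8 and 54.3. Of those 96, the number among the top 10 percent of a library was 6 and 5 for K215/216A, 1 in K215/216R replicate 1 and 0 in K215/216R replicate 2. The set had a median length of 362 bp, against 385 bp for all K215/216A regions and 476 bp for the regions of all 3 strains. The 841 K215/216A regions that overlapped neither other joint list had a median of 280 bp. Single libraries still had peaks at many of those 841, as with 347 in wild type replicate 2 and 441 in K215/216R replicate 2.

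**Figure D3:**
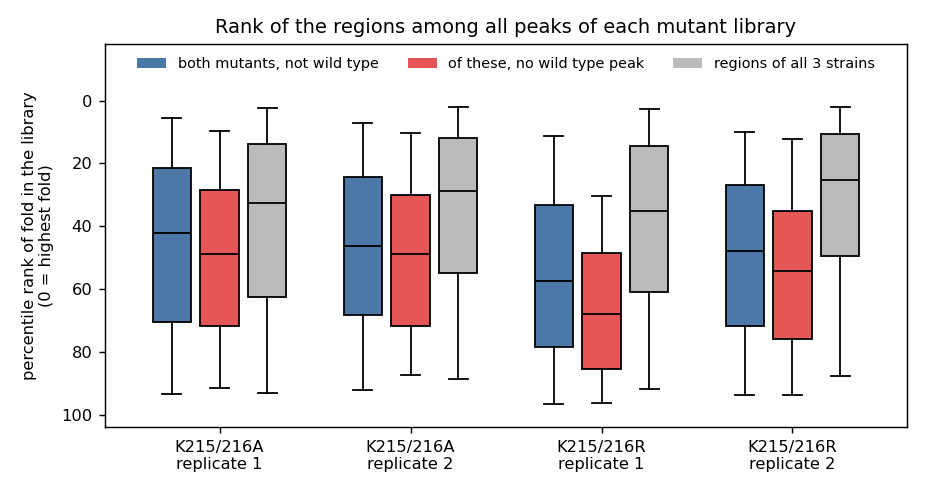
Percentile rank of fold among all peaks of each mutant library (vertical axis, 0 is the highest fold, axis inverted), for the 606 regions, the 96 with no wild type peak and the 1857 regions of all 3 strains. Boxes span the quartiles with the median, and whiskers reach the 5 and 95 percent points. In every library the median of the 606 regions lies below that of the regions of all 3 strains, as in K215/216R replicate 1 at 57.3 against 35.1. The regions of all 3 strains had to overlap the joint wild type list and the 606 had to miss it, so the rule favours this order.

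In most regions the summits of the mutants lay close together. Between replicates the median distance was 2 bp for K215/216A against 5 bp for K215/216R. Between the mutants it was 2 to 5 bp over the 4 pairs of libraries, and 371 to 402 regions per pair had summits within 50 bp. Where wild type replicate 2 had a peak, its summit was at a median of 3 bp from that of each K215/216A library, within 50 bp in 327 and 313 of 474 regions. The regions of all 3 strains gave medians of 3 to 5 bp.

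Of the 12 best-ranked regions, 9 lay away from centromere intervals. ATG40 encodes a receptor for autophagy of the endoplasmic reticulum, and its promoter region (XV, 618438 to 618816) lay between divergent genes. Fold was 2.04 and 2.28 in K215/216A, 2.03 and 2.15 in K215/216R and 1.52 in wild type replicate 2. The promoter region of JEN1 (XI, 21809 to 22494), the gene of a lactate and pyruvate transporter, had 2.01 and 1.99, 2.08 and 1.82, and 1.35. In these 2 regions the mutants overlapped each other, and wild type replicate 2 was below all 4 mutant libraries by the widest margins among the 12 best-ranked regions.

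MUD1 (II, 479242 to 479529), the gene of a U1 snRNP protein, held a summit 12 bp inside its start. Fold was 2.40 and 2.32 in K215/216A, 2.19 and 2.07 in K215/216R and 2.21 in wild type replicate 2. The promoter region of UTP20 (II, 227135 to 227396), a gene of ribosomal RNA processing, had 2.01 and 2.25, 2.01 and 2.07, and 1.84. The promoter region of RIM2 (II, 607297 to 607652), the gene of a mitochondrial nucleotide carrier, had 1.76 and 1.90, 2.18 and 1.89, and 2.01. Wild type replicate 2 thus lay among the mutants at MUD1 and RIM2, and below them at UTP20.

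The other 3 of the 12 best were a site in YDR246W-A (IV, 955061 to 955463), a site in LGE1 (XVI, 454689 to 454955), which encodes a factor of histone H2B ubiquitination, and a site between convergent genes near YOL014W (XV, 301217 to 301367). Their mean fold was 1.92 to 2.01 for K215/216A against 1.94 to 2.01 for K215/216R. Wild type replicate 2 had 1.65, 1.89 and 2.16 there, below all mutant libraries at the first and second and above all of them at YOL014W.

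Among the 96 regions with no wild type peak, that between PKH1 and IZH1 ranked best by a wide step. IZH1 encodes a membrane protein of zinc homeostasis and PKH1 a protein kinase, and the summit at 1434703 on chromosome IV lies in the promoters of both, 221 bp from the start of IZH1. Fold was 1.81 and 2.02 in the K215/216A libraries against 2.25 and 1.87 in those of K215/216R, and the mutants overlapped. Its worst percentile over the 4 mutant libraries was 11.2, and the next of the 96, ETT1, had 33.4.

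The promoter region of ETT1 (XV, 426546 to 426724), a gene of translation termination, had fold 1.54 and 1.87 (K215/216A) against 1.84 and 1.73 (K215/216R). A site between convergent genes past the end of GLC7 (V, 434427 to 434656), the gene of protein phosphatase 1, had 1.79 and 1.75, and 1.67 and 1.64. A site upstream of PTP3 (V, 311675 to 311908), the gene of a tyrosine phosphatase of MAP kinases, had 1.87 and 2.03, and 1.65 and 1.74. At GLC7 and PTP3 both K215/216A libraries were the higher ones, and at ETT1 the mutants overlapped.

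Further sites without a wild type peak lay in the promoters of MIN10 (summit inside QCR6), RTS3 and FAR3, the last a pheromone arrest gene. Mean fold in K215/216A was 1.92 ± 0.18, 1.77 ± 0.25 and 1.69 ± 0.07 (SD, n = 2). For K215/216R it was 1.69 ± 0.04, 1.59 ± 0.07 and 1.61 ± 0.001. The sites inside TPS1 (trehalose synthesis), YJR124C, PHO86 (phosphate transporter export) and CUS2 (U2 RNA folding) had mean folds of 1.49 to 1.66 in the alanine mutant and 1.61 to 1.64 in the arginine mutant. Of these 7, K215/216A was above without overlap at MIN10 and FAR3, and below at PHO86.

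**Figure D4:**
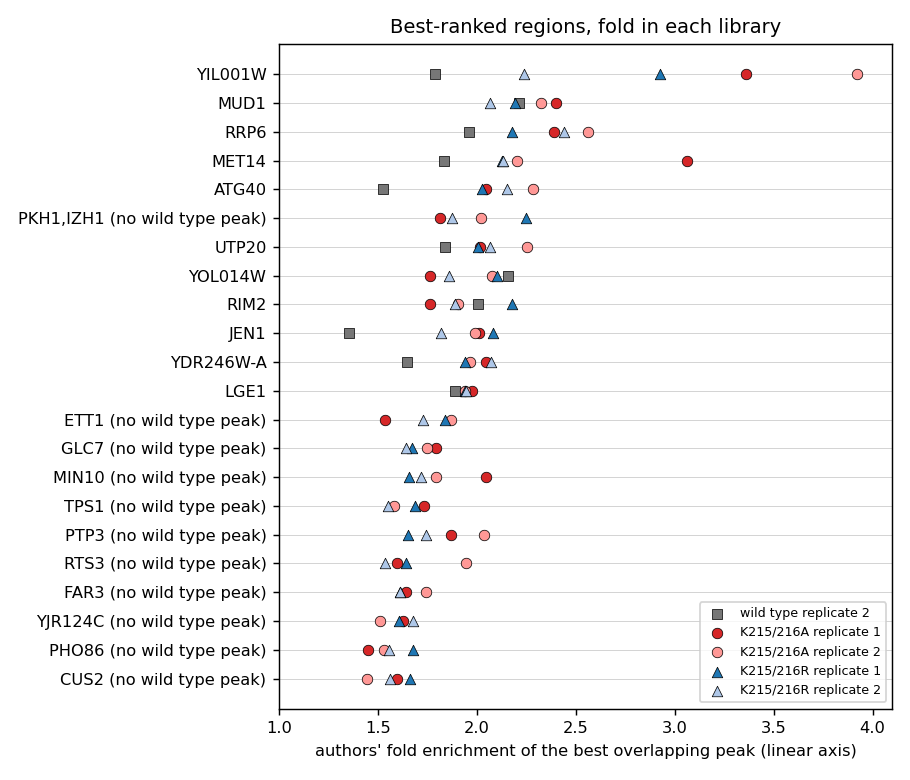
Authors' fold of the best overlapping peak (horizontal axis, linear) in each library for the 12 best-ranked of the 606 regions and the next 10 with no wild type peak, in order of rank within each group. Squares are wild type replicate 2 and are missing where it had no peak. Regions with no wild type peak other than PKH1,IZH1 lie at lower fold than most of the 12 best, with mean folds of 1.95 or less.

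The longest regions after that on XV lay upstream of TRP3 (XI, 38116 to 39312), a gene of tryptophan synthesis, in SIM1 (IX, 128818 to 130008), a cell wall gene, and upstream of CAP2 (IX, 289447 to 290459), the gene of an actin capping subunit. They were 1197, 1191 and 1013 bp long. SIM1 was among the 8 regions with peaks of both wild type libraries that did not overlap each other. At TRP3 mean fold was 1.31 ± 0.06 (K215/216A) against 1.56 ± 0.08 (K215/216R; SD, n = 2), with both K215/216A libraries below both of K215/216R.

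The position of the regions relative to genes was close to that of other Cse4 regions. Summits lay in a promoter, the 500 bp upstream of a gene start, in 215 of the 606 (35.5%, Wilson 95% interval 31.8% to 39.4%), against 39.2% of all K215/216A regions and 40.1% of those of all 3 strains. They lay inside genes in 312 (51.5%), against 51.8% and 50.4%. Summits between divergent genes made up 14.7%, between tandem genes 25.1% and between convergent genes 8.42%, against 16.0%, 25.6% and 6.10% of all K215/216A regions. Of the 96 with no wild type peak, 56 (58.3%) lay inside genes and 37 (38.5%) in promoters. The Wilson interval covers counting error only and treats neighbouring regions as separate.

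**Figure D5:**
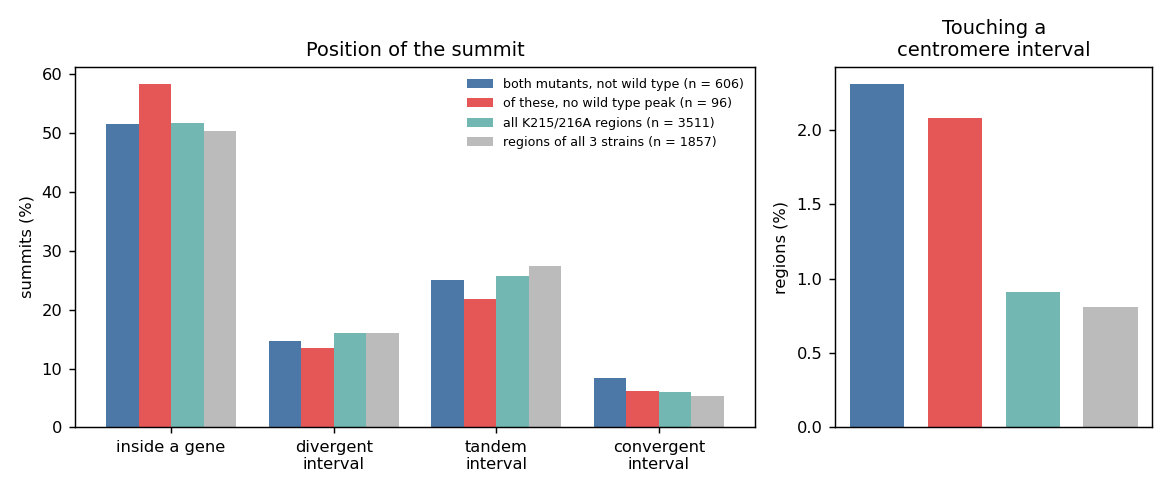
Left, share of summits (percent) inside a gene or between divergent, tandem or convergent genes. Right, share of regions (percent) that touch a centromere interval. Bars are the 606 regions, the 96 with no wild type peak, all 3511 K215/216A regions and the 1857 regions of all 3 strains, in the same order and colours in both panels. The left panel differs little between sets, and in the right panel the 606 regions reach 2.31% against 0.911%.

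All 16 chromosomes held regions of the set, from 8 on I to 73 on IV. It took 9.42% of the K215/216A regions on chromosome IX and 22.1% of those on V, the lowest and highest shares. Within 50 kb of a centromere interval lay 138 regions (22.8%), against 19.3% of all K215/216A regions. A chromosome end was taken as the outer edge of the outermost protein-coding gene. Summits within 20 kb of such an end numbered 13 (2.15%), against 3.30% of all K215/216A regions. The 96 regions without a wild type peak had 16 (16.7%) within 50 kb of an interval and 0 near an end. The median distance to the nearest region of the wild type list was 1097.5 bp, and 61 of the 606 were within 250 bp of one. For the 96, the nearest wild type peak of any kind was at a median of 513 bp.

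At the edge of the rule, the region in SNP1 (IX, 245037 to 245250) came closest to the wild type list, with a gap of 14 bp. A region inside RRP6 (XV, 328438 to 328735) had the smallest overlap with K215/216R, at 7 bp. Just outside, a region at PDL32 (XIII, 442435 to 442701) was left out by an overlap of 1 bp with wild type, and a region at TUB1 (XIII, 99056 to 99199) by a gap of 99 bp to K215/216R. The median overlap with K215/216R was 275.5 bp, and 1 region had 20 bp or less.

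Promoters of 251 genes held a summit of the set, which is 4.18% of 6002 protein-coding genes, and 26.0% held a summit of any K215/216A region. In 36 regions the summit lay in more than 1 promoter. Genes of the respiratory chain and citric acid cycle had 5 of 56 (8.93%), and 44.6% of them had any K215/216A region, so both shares were above those of all genes. The 5 were CIT1 (citrate synthase), ATP3 (ATP synthase), SDH1 (succinate dehydrogenase), QCR9 (complex III) and COX9 (complex IV), and CIT1 and QCR9 had no wild type peak. At CIT1, the best ranked, fold was 1.61 and 2.05 in the K215/216A libraries against 1.54 and 1.42 in those of K215/216R, without overlap. The CIT1 region lay 1070 bp from the centromere interval on XIV, just outside the 1 kb limit.

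Amino acid synthesis genes had 5 of 82 (6.10%), namely LYS2, BAT2, TRP3, ARG4 and PRO3, and 35.4% had any K215/216A region. BAT2, a branched-chain aminotransferase gene with no wild type peak, had fold 1.38 and 1.58 for K215/216A against 1.94 and 1.86 for K215/216R. K215/216R was higher there without overlap. LYS2 and ARG4 were unlike most of the set, as their wild type peak was in replicate 1 only, with fold 2.03 and 1.75.

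SUMO and ubiquitin pathway genes had 3 of 36 (8.33%), all from the ubiquitin side, and 9 had any K215/216A region. They were CDC34 and UBC4, which encode ubiquitin-conjugating enzymes, and CDC48, which encodes the segregase that extracts ubiquitinated proteins. At CDC34 fold was 1.56 and 1.80 in K215/216A, 1.81 and 1.76 in K215/216R and 1.72 in wild type replicate 2, with overlap throughout. Cohesin and condensin genes had 2 of 18 (11.1%), RAD61, a regulator of cohesin, and BRN1, a condensin subunit, and 27.8% had any K215/216A region. Kinetochore and checkpoint genes had 2 of 56 (3.57%), NBL1 and MAD2, and 21.4% had any K215/216A region.

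Ribosomal protein genes had 3 of 129 (2.33%), RPL43B, RPL14B and RPL15B, and only 6.20% of them had any K215/216A region. Lists with 2 genes were oxidative stress (GSH2 and SRX1 of 29), mating (KSS1 and STE2 of 32) and cell wall (TIR2 and DSE4 of 53). Lists with 1 were glycolysis and fermentation (ADH1 of 25), ergosterol (ERG6 of 31), fatty acids and phospholipids (PSD1 of 35), cyclins (CLN1 of 27), nitrogen regulation (GZF3 of 29), phosphate (VTC2 of 24), metals (IZH1 of 43), meiosis (SPO13 of 45), silencing and remodelling (HDA1 of 50) and multidrug transporters (TPO4 of 28). Hexose transporters, the galactose regulon, histone and chaperone genes, heat shock genes and vacuolar ATPase genes had 0 of 17, 12, 25, 31 and 18. With counts this small the shares of these lists are given beside the 4.18% and nothing was tested.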

How the data were processed

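The tools, per the submitters' processing notes, were Bowtie 1.0.0, MACS2 2.1.1.20160226 and bedtools 2.25.0, on build sacCer3. What MACS2 took as control is not given in the sources used here. The recovered local background depends on that control, so the depths and scaled counts given here hold only as far as it tracks the depth of the library. The deposited fold is a ratio of pileup to local background at the summit. The deposited −log10 p and −log10 q belong to the summit, with a smallest −log10 q of 1.30 in each library, and the score deposited with each peak is that −log10 q times 10. The authors called peaks per library. Their joint list per strain was used as deposited, the fold being a mean over the joined peaks. For alternatives that changed the peaks, the joint list was rebuilt by joining peaks that overlapped between the libraries of a strain. The 6 input libraries were not analysed here.

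Pileup and local background were solved from fold and p under a Poisson tail. The pileup came out whole, to within 0.02, in 96.5% to 99.6% of the peaks of a library, and the lowest local background served as depth. Scaling multiplied both by the ratio of depths, without sampling. Regions were compared by overlap of 1 bp or more. Genes came from the RefSeq R64 table (sacCer3), and strand from the systematic name. A region was called by the genes whose promoter held its best K215/216A summit, else by the gene holding it, else by the nearest start. Region sequences were not used here.

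Regions named were the 12 best by the worst of their 4 mutant percentiles, the next 10 with no wild type peak, up to 10 more within 1 kb of a centromere interval, and the 3 longest of the rest. Up to 6 genes were named per list, from 24 lists written from general knowledge, of whose 933 symbols 930 matched. The set, lists and rules were chosen with earlier results of these data known. Alternatives were each library left out, a stricter q, other overlap rules, list lengths, depths and promoter lengths. Steps were tested on simulated data. Python 3.11.15, pandas 2.3.3, numpy 2.4.6, scipy 1.17.1 and matplotlib 3.10.9 were used.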

Additional observations from a re-analysis of the deposited data

How the results depend on the processing

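The number of regions in the set changed with the processing. It was 327 at equal list length, 378 at the lowest genome background, 244 at a −log10 q of at least 10, and 96 when any peak of either wild type library counted as wild type. Leaving out 1 library gave 132 (without wild type replicate 1) to 1047 (without K215/216R replicate 1). The strain of the library left out was then represented by 1 list. Without wild type replicate 2 the number was 576, and without K215/216R replicate 2 it was 663. The cause of these shifts was not tested.

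Regions with no wild type peak numbered 38 at a −log10 q of at least 10, and 117 to 576 with 1 library left out. Regions in or within 1 kb of a centromere interval numbered 3 when any wild type peak counted, and 3 to 22 with 1 library left out, and were 15 to 20 under the other alternatives. The promoter share was 18.0% with a promoter of 250 bp, 61.2% with 1000 bp, 41.8% where −log10 q reached 10, and 34.1% to 37.3% with 1 library left out. The share inside genes was 39.8% at a −log10 q of at least 10, 58.3% when any wild type peak counted, and 50% to 59.1% with 1 library left out. The difference in median fold was −0.0906 at a −log10 q of at least 10, and −0.0442 to 0.019 with 1 library left out.

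Of the sets compared, the regions of wild type and K215/216A missing from K215/216R numbered 124 where −log10 q reached 5, 48 where it reached 10, 591 when any wild type peak counted, and 42 to 553 with 1 library left out. Those of wild type and K215/216R missing from K215/216A numbered 360 at equal list length, 91 at a −log10 q of at least 10, 512 when any wild type peak counted, and 162 to 487 with 1 library left out. Wild type regions missing from both mutants numbered 181 where −log10 q reached 5, 68 where it reached 10, 1669 when any wild type peak counted, and 101 to 1171 with 1 library left out. No paired analysis was possible because no result comes from a test. Wild type replicate 1 had the lowest background, 59.5, and how far depth set its calls was not tested beyond the scaling.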
